A study of Mus musculus with 7 samples.

Results

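The 8 genes described here, Pax6, Lhx2, Emx1, Emx2, Gsx1, Gsx2, Nkx2-1 and Zic1, encode transcription factors that pattern the dorsal and ventral forebrain. They were taken by symbol from the gene table that all 7 libraries share, where 8 of 31053 genes matched, with a single row for each symbol. The libraries are single-cell RNA-seq of untreated mouse brain tissue made with droplets and a 3' kit, and each tissue and age is a single library. The adult libraries come from postnatal day 60 (P60) and hold the cortex, the grey matter dorsal to the cortical white matter, and the white matter directly dorsal to the lateral ventricles with its corpus callosum and ventricular-subventricular zone (V-SVZ). The early postnatal libraries hold the cortex at P2, P7 and P15 and the dorsal and lateral V-SVZ at P7, called P7 SVZ below. A cortex library is the tissue dorsal to the lateral ventricles, so it includes V-SVZ, white matter and grey matter. The P7 SVZ library came from C57BL/6 mice and the others from CD1 mice, so region and strain cannot be told apart in it. Nothing in the labels says that libraries came from separate animals, and the spread between libraries may be technical in part.

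In the developing telencephalon these factors divide the ventricular wall into territories before neurons are made. Pax6, Lhx2, Emx1 and Emx2 are known from dorsal (pallial) progenitors, whose neuronal offspring are excitatory, while Gsx1 and Gsx2 are known from the lateral and Nkx2-1 from the medial ganglionic eminence, ventral territories that give rise to inhibitory neurons and to part of the oligodendrocyte lineage. Zic1 is known from the septum, the dorsal midline and the cells around the brain. After birth the V-SVZ keeps progenitors from several of these territories, and olfactory bulb neuroblasts use some of the same factors again.

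The genes lie on 6 mouse chromosomes in mm10. Lhx2 (ENSMUSG00000000247, chr2:38339281-38369733) and Pax6 (ENSMUSG00000027168, chr2:105668900-105697364) are on the plus strand of chromosome 2. Gsx2 (ENSMUSG00000035946, chr5:75075601-75077893) and Gsx1 (ENSMUSG00000053129, chr5:147188696-147190947) are on the plus strand of chromosome 5, and Emx1 (ENSMUSG00000033726, chr6:85187438-85204462) and Emx2 (ENSMUSG00000043969, chr19:59458372-59465357) are also on the plus strand. Zic1 (ENSMUSG00000032368, chr9:91358058-91365810) and Nkx2-1 (ENSMUSG00000001496, chr12:56531958-56536908) are on the minus strand. In the GENCODE M21 annotation 5 of the 8 overlap a gene on the other strand, namely Emx2 with Emx2os, Pax6 with Pax6os1, Lhx2 with Gm27197 and Gm13584, Nkx2-1 with Gm26973, and Zic1 with Zic4. Whether reads were counted by strand is not given in the sources used here, so UMIs of such a pair cannot be told apart with certainty.

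The 250 bases before the annotated start are shown for 4 members, Pax6 and Lhx2 because they were found in the same progenitor and astrocyte classes, and Gsx1 and Gsx2 because this pair of relatives differed in the classes that held them. The sequences are from RefSeq (GRCm38.p6), which had a window for all 8 members. They are written 5' to 3' on the gene's strand in lower case, with any E-box (CANNTG, the core that bHLH factors bind, read the same on both strands) in capitals. The windows are chr2:105668646-105668895 for Pax6, chr2:38339031-38339280 for Lhx2, chr5:147188446-147188695 for Gsx1 and chr5:75075351-75075600 for Gsx2.
Pax6: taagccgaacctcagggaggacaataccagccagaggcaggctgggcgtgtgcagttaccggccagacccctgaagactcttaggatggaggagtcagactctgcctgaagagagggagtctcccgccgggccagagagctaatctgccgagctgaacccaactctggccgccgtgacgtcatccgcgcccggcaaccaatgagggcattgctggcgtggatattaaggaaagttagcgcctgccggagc
Lhx2: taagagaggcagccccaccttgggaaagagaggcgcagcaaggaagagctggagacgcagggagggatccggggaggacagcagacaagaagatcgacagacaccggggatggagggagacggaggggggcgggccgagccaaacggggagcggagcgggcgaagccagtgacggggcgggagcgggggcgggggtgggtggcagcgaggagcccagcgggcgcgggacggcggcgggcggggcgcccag
Gsx1: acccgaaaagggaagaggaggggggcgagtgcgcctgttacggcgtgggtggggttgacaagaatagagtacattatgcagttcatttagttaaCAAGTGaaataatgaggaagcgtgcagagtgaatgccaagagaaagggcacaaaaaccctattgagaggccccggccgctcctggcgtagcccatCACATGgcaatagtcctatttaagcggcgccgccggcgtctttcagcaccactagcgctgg
Gsx2: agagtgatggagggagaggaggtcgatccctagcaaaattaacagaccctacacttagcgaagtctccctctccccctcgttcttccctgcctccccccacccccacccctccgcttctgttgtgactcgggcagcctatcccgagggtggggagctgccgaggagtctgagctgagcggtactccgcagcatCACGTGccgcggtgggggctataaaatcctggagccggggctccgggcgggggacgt
The E-box letters occurred 2 times before Gsx1 and 1 time before Gsx2, Emx1, Nkx2-1 and Zic1, and not before Pax6, Lhx2 or Emx2. They occurred in 66% of all 27025 promoters of this length, so 5 of 8 is near the genome's share. The homeodomain core TAATTA, also the same on both strands, was in none of the 8 windows and in 4.90% of all promoters. The windows held more CpG than most, with 25 CpG in Lhx2, 15 in Pax6, 15 in Gsx1 and 16 in Gsx2 against a median of 6 over all promoters. Emx1 had the most with 30 and Nkx2-1 the fewest with 9.

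Of 25747 barcodes, 20697 passed the cell filters, from 1857 in P60 grey matter to 4069 in P7 cortex. The libraries held 10074763 to 45668007 UMIs (counted molecules), with a median of 2791 UMIs per kept cell in P60 cortex and 9530.5 in P2 cortex. The P7 SVZ library stood apart: 57.4% of its barcodes were kept, 2540 were over the mitochondrial limit, and it shared at most 1 barcode with any other library, against 2 to 28 for pairs of the others. Cells were clustered with the 8 members and 36 further patterning genes left out, so that differences in them between classes were not built in. The 56 clusters were named from marker lists as 16 classes, each called "-like", and 5 clusters with 772 cells stayed unnamed. The classes most used here are 1632 neural precursor-like, 1196 intermediate precursor-like, 2141 neuroblast-like, 3476 astrocyte-like and 1894 oligodendrocyte precursor (OPC)-like cells, with 844 committed oligodendrocyte precursor (COP)-like, 1597 excitatory neuron-like and 230 pericyte or smooth muscle-like cells. Levels are given as CPM, the UMI counts of a gene scaled to the same total in every sum, with a class summed over its cells in a library, for sums of at least 20 cells. A share of cells counts cells with at least 1 UMI after each cell was thinned to 2000 UMIs, unless stated otherwise. Intervals are exact 95% intervals and cover counting error only. Since free RNA gives stray UMIs in droplets, microglia-like cells served as the background. There the pooled share was highest for Lhx2, in 12 of 3208 thinned cells (0.374%), and 0 for Gsx1, Gsx2 and Nkx2-1, where a count of 0 allows a share of up to 0.273% in P60 grey matter, the library with the most such cells. The median depth was 4656.5 UMIs in microglia-like cells.

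Pax6, a paired-box and homeodomain factor of dorsal progenitors, was found in 5223 cells with 11649 UMIs. Neural precursor-like cells held 29.7% of these UMIs, astrocyte-like cells 27.2%, neuroblast-like cells 21.5% and intermediate precursor-like cells 16.8%. Its level in neural precursor-like cells was 357 CPM in P2 cortex, 334 in P7 cortex, 256 in P7 SVZ and 419 in P15 cortex, a mean of 341 ± 67.4 CPM (SD, n = 4 libraries). Neuroblast-like cells followed with 230 ± 73.2 CPM (n = 6), astrocyte-like cells with 221 ± 92.1 CPM (n = 6) and intermediate precursor-like cells with 172 ± 66.3 CPM (n = 5). The ranges of these 4 classes overlapped from each to the next. Below them lay a gap, since OPC-like cells had 18.95 ± 7.24 CPM (n = 7) and none of their libraries reached the lowest intermediate precursor-like value of 94.6 CPM. This gap holds for class sums only. The cluster led by Neurod2 and Unc5d, 72.3% of the intermediate precursor-like cells of P2 cortex, lay within the OPC-like range there, as given below. Pax6 was thus shared by neural precursor-like, neuroblast-like and astrocyte-like cells and by a part of the intermediate precursor-like class. In excitatory neuron-like cells it stood at 2.12 ± 0.824 CPM (n = 3), beside 2.48 ± 3.47 CPM in endothelial-like cells (n = 5).

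Lhx2, a LIM-homeodomain factor that keeps cortical progenitors in their fate, was found in 5818 cells with 11915 UMIs. It was close in level across the neural precursor-like libraries, with 246 CPM in P2 cortex, 209 in P7 cortex, 245 in P7 SVZ and 244 in P15 cortex. The mean was 236 ± 17.9 CPM (n = 4), beside 200 ± 61.8 CPM in intermediate precursor-like (n = 5) and 196 ± 50.9 CPM in astrocyte-like cells (n = 6), and these 3 classes overlapped. Of the neuronal classes, excitatory neuron-like cells were highest, with 112 CPM in P2 cortex, 65.3 in P15 cortex and 45.8 in P60 cortex, all below every astrocyte-like library. The mixed immune and Reln-positive cluster (115 CPM) and ependymal-like cells (97.3 CPM), each with 1 library of enough cells, lay between the means of the 2 classes. OPC-like cells had 41.6 ± 8.57 CPM (n = 7) and neuroblast-like cells 25.2 ± 22.5 CPM (n = 6). Lhx2 and Pax6 thus parted in the neuronal classes, with Lhx2 in excitatory neuron-like cells and Pax6 in neuroblast-like cells.

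Emx1, a homeodomain factor of the pallium and its excitatory neurons, was found in 2284 cells with 3967 UMIs, of which excitatory neuron-like cells held 49.0%. The level there was 88.8 CPM in P2 cortex, 56.4 in P15 cortex and 60.3 in P60 cortex. Neural precursor-like cells had 59.6 CPM in P2 cortex, 58.2 in P7 cortex, 31.4 in P7 SVZ and 99.9 in P15 cortex, and the 2 classes overlapped with means of 68.5 ± 17.7 (n = 3) and 62.3 ± 28.2 CPM (n = 4). Intermediate precursor-like cells ranged from 7.06 CPM in P60 white matter to 73.3 CPM in P2 cortex. Astrocyte-like cells had 6.47 ± 7.48 CPM (n = 6), OPC-like cells 4.01 ± 4.03 CPM (n = 7) and neuroblast-like cells 0.984 ± 1.34 CPM (n = 6). The 38 ependymal-like cells of P7 cortex, the only library with enough of them, had 107 CPM of Emx1, 112 CPM of Pax6 and 97.3 CPM of Lhx2. Among thinned cells of the P2 excitatory class 14.8% had Emx1, against 0 of 18 P2 microglia-like cells.

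Emx2, the relative of Emx1, was found in 2182 cells with 2845 UMIs and had a different distribution. Astrocyte-like cells held 36.6% of its UMIs and neural precursor-like cells 24.7%, while excitatory neuron-like cells had 4.22 ± 1.78 CPM (n = 3). Its mean was 72.9 ± 21.6 CPM in neural precursor-like (n = 4) and 66.9 ± 25.2 CPM in astrocyte-like cells (n = 6), with the lowest library in each being P7 SVZ (51.2 and 27.5 CPM). Intermediate precursor-like cells had 32.7 ± 16.9 CPM (n = 5) and OPC-like cells 17 ± 8.44 CPM (n = 7). Emx2os, which overlaps Emx2 on the other strand, had 682 UMIs, and among genes outside the 8 members its profile over the class sums was the one most like that of Emx2.

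**Figure D1:**
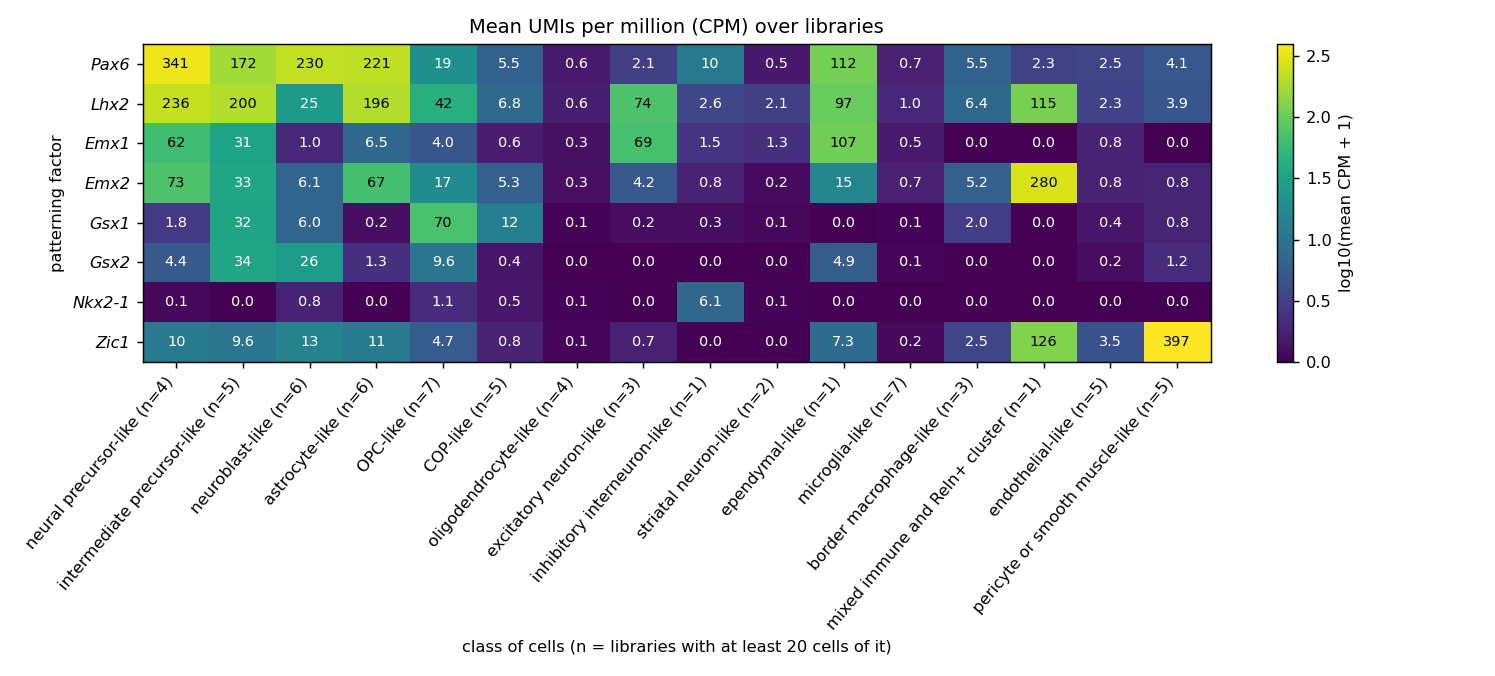
Mean CPM of the 8 factors (rows) in each class (columns), averaged over the libraries with at least 20 cells of the class (n in the label), with colour on a log10 scale of mean CPM + 1. Pax6, Lhx2 and Emx2 are high in neural precursor-like and astrocyte-like cells, Gsx1 is highest in OPC-like cells at 69.8 CPM, and Zic1 stands out in pericyte or smooth muscle-like cells at 397 CPM.

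Gsx2, a homeodomain factor of the lateral ganglionic eminence, was found in 597 cells with 1028 UMIs. Neuroblast-like cells held 42.0% and intermediate precursor-like cells 37.1% of them. In intermediate precursor-like cells its level was 17 CPM in P2 cortex, 45.9 in P7 cortex, 3.40 in P7 SVZ, 36.3 in P15 cortex and 67.1 in P60 white matter. Of these UMIs all but 2 lay in the cycling cluster led by Neurog2, Pbk and Ccna2, which made up 24.0% of the class in P2 cortex, 69.9% in P7 cortex, 30.6% in P7 SVZ, 86.0% in P15 cortex and 93.2% in P60 white matter. Within that cluster Gsx2 had 53.7 CPM in P2 cortex, 54.4 in P7 cortex, 39.2 in P15 cortex and 69.8 in P60 white matter. In neuroblast-like cells it was 14.0 CPM in P2 cortex, 35.3 in P7 cortex, 34.8 in P7 SVZ and 56.1 in P15 cortex, and 7.20 in P60 cortex and 8.25 in P60 white matter. The 2 classes overlapped, with means of 33.9 ± 24.8 (n = 5) and 25.9 ± 19.4 CPM (n = 6). Within P7 neuroblast-like cells the dividing clusters were the high ones: the cluster led by Nusap1 and Ccnb1 had 74.0 CPM in P7 cortex, against 20.2 and 17.4 CPM in the 2 other clusters. In P7 SVZ the cluster led by histone genes had 45.0 CPM of Gsx2, against 0.871 CPM in the 349 cells and 0 in the 188 cells of the other 2 clusters, which share Pbx3, Gm26735 and Prokr2 as leading genes.

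Gsx1, the relative of Gsx2, was found in 809 cells with 1407 UMIs, and OPC-like cells held 59.6% of them. The level there was 57.2 CPM in P2 cortex, 59.1 in P7 cortex, 41.7 in P7 SVZ, 93.1 in P15 cortex, 51.3 in P60 cortex, 147 in P60 grey matter and 39.1 in P60 white matter. It was present in all 7 libraries and lay highest in P60 grey matter. Intermediate precursor-like cells came next at 32.0 ± 28.6 CPM (n = 5) and COP-like cells, the step after OPCs, at 12.3 ± 11 CPM (n = 5). COP-like levels were 22.0 CPM in P60 cortex and 26.3 CPM in P60 white matter, above the 3.75, 3.21 and 6.03 CPM of P7 cortex, P7 SVZ and P15 cortex. Astrocyte-like cells had 0.882 CPM of Gsx1 in P7 cortex, 0.524 CPM in P15 cortex and no UMI in the other 4 libraries.

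Nkx2-1, the factor of the medial ganglionic eminence, was rare, with 112 UMIs in 61 cells. Inhibitory interneuron-like cells held 39.3% of these UMIs and neuroblast-like cells 35.7%. In P2 cortex 11 of 446 interneuron-like cells had 24 UMIs (6.13 CPM). OPC-like cells had 7.57 CPM in P2 cortex, 0.350 CPM in P7 cortex and no UMI in the other 5 libraries. Among neuroblast-like cells the level was 4.68 CPM in P7 SVZ, 0.315 CPM in P7 cortex and 0 in the other 4 libraries. Within P7 SVZ the level was 38.6 CPM in the 188-cell cluster, 7.84 CPM in the 349-cell cluster and 0.156 CPM in the histone-led cluster. Of 20 cells with Nkx2-1 in the 349-cell and 188-cell clusters together, 1 had Pax6 at full depth (5%, 0.127 to 24.9), against 35.2% (31.1 to 39.5) of the 517 cells there without Nkx2-1, at median depths of 6263 and 3421 UMIs. No UMI of Nkx2-1 was seen in any astrocyte-like or intermediate precursor-like sum.

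Zic1, a zinc-finger factor, was found in 782 cells with 1368 UMIs and was highest outside the neural lineages. Pericyte or smooth muscle-like cells had 364 CPM in P7 cortex, 570 in P7 SVZ, 286 in P15 cortex, 425 in P60 cortex and 339 in P60 white matter. The mean was 397 ± 109 CPM (n = 5). The next class was the mixed cluster of immune and Reln-positive cells, with 126 CPM in its 1 library of enough cells, and the highest neuroblast-like library had 24.3 CPM. Neuroblast-like (13.4 ± 7.12 CPM, n = 6), astrocyte-like (10.8 ± 7.95 CPM, n = 6), neural precursor-like (10.4 ± 10.3 CPM, n = 4) and intermediate precursor-like cells (9.57 ± 8.69 CPM, n = 5) overlapped one another. Within the pericyte or smooth muscle-like cluster, at full depth, Zic1 was found in all 42 cells with Dcn, a matrix proteoglycan of fibroblasts (100%, interval from 91.6%), and in 63.3% of cells without it. Of 152 cells with any of 6 fibroblast markers 81.6% had Zic1, against 47.4% of 78 cells with none, but their median depths were 6182 and 1835 UMIs, and the levels were 393 and 299.8 CPM. The cluster thus also holds RNA of fibroblasts, and the part of that RNA in the Zic1 level was not tested. Of the pericyte markers, Rgs5 went with less Zic1, in 65.6% (58.4 to 72.3) of 192 cells with Rgs5 and 92.1% (78.6 to 98.3) of 38 cells without it, while for Kcnj8 the shares were 74.8% and 66.1% and for Vtn 74.4% and 45.7%. Of the smooth muscle markers, Zic1 was in 57.9% of cells with Acta2 and 76.0% without, and in 59.1% with Tagln and 76.8% without.

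**Figure D2:**
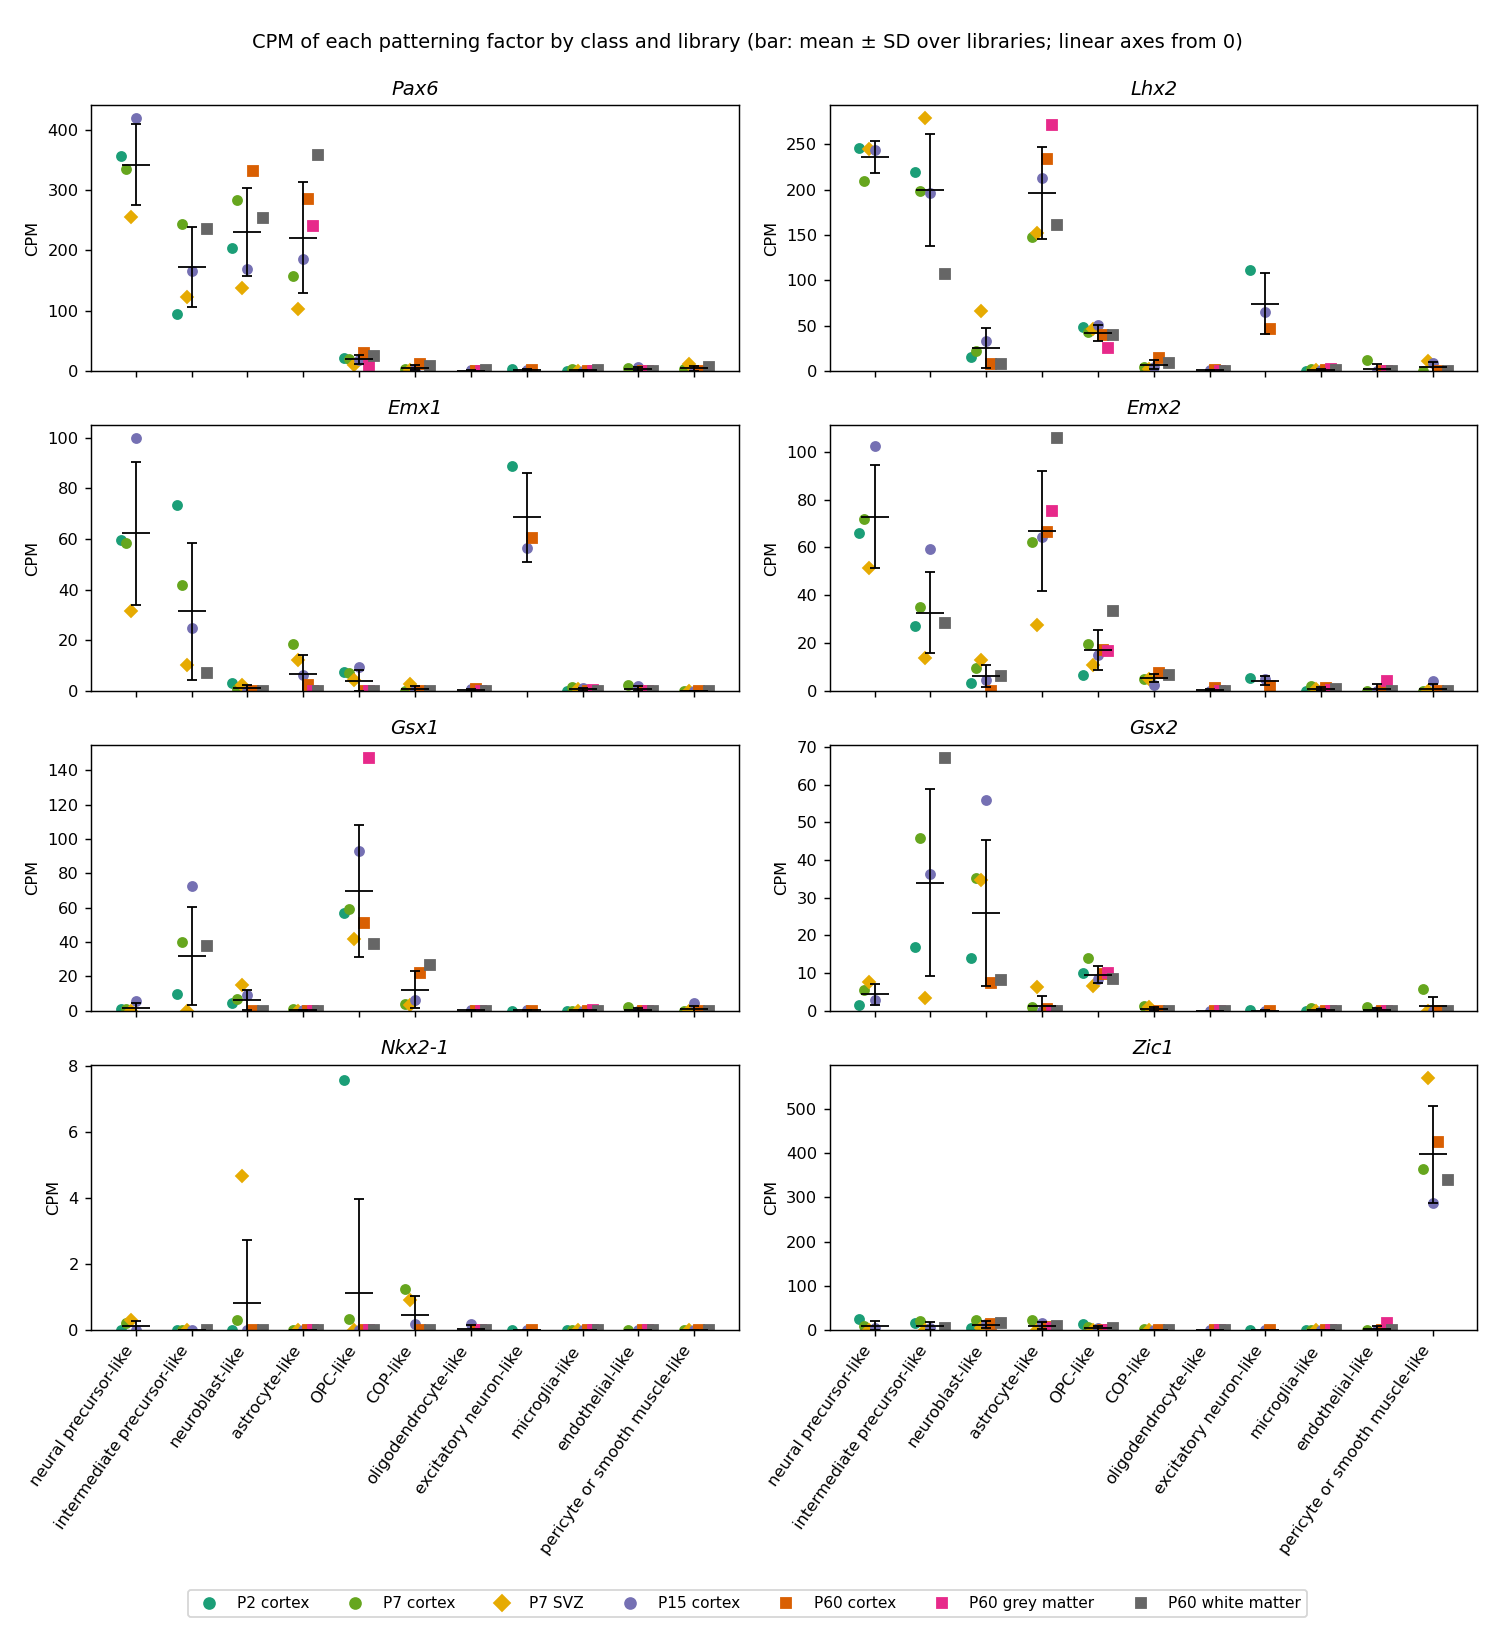
CPM of each factor (1 panel each, linear axes from 0) by class, with a point for each library that had at least 20 cells of the class and a bar for the mean ± SD over libraries. Pax6 and Lhx2 part in neuroblast-like cells, where Pax6 has 137 to 331 CPM and Lhx2 7.20 to 66.6 CPM.

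The classes of the excitatory lineage resolved Pax6, Lhx2 and Emx1 further in P2 cortex. In the cluster led by Vnn1 and Pter, a neural precursor-like cluster, Pax6 stood at 478 CPM, Lhx2 at 303 CPM and Emx1 at 76.5 CPM. The intermediate precursor-like cluster led by Neurod2 and Unc5d, with 409 cells, had 24.4 CPM of Pax6, 225 CPM of Lhx2 and 83.4 CPM of Emx1. Excitatory neuron-like clusters differed by leading genes: the 813 cells led by Bhlhe22 and Syt4 had 135 CPM of Lhx2 and 82.4 CPM of Emx1. The 246 cells led by Nts, Hs3st4 and Crym, genes of deep-layer neurons, had 2.80 CPM of Lhx2 (interval 1.28 to 5.31) and 121 CPM of Emx1. Pax6 was 2.96 CPM and 0.622 CPM in these 2 clusters. Across these 4 clusters Emx1 lay between 76.5 and 121 CPM, while Pax6 lay between 0.622 and 478 CPM and Lhx2 between 2.80 and 303 CPM. The 4 are only a part of these classes in P2 cortex. Clusters left out include 260 cells led by Bhlhe22 and Neurod2 and 141 led by Fabp7 and Acot1. The whole intermediate precursor-like class there had 73.3 CPM of Emx1, so the ranges hold for the 4 clusters only. This is a description of 1 library.

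In neural precursor-like cells Lhx2 was found more often in cells with Pax6 than in cells without it. Lhx2 was found in 44.8% of cells with Pax6 and in 28.6% of cells without it in P2 cortex, in 39.0% and 26.1% in P7 cortex, in 43.2% and 34.6% in P7 SVZ, and in 53.3% and 31.4% in P15 cortex. The share was higher beside Pax6 in 4 of 4 libraries at equal depth. Over all 1592 thinned cells it was 42.8% (39.1 to 46.4) beside Pax6 and 29.7% (26.6 to 32.8) without, and without thinning 74.4% and 57.6%. Astrocyte-like cells gave 36.0% (33.0 to 39.1) and 29.8% (27.9 to 31.8). In neuroblast-like cells the libraries differed in order, with Lhx2 in 4.30% (1.87 to 8.30) of Pax6 cells and 2.45% (1.06 to 4.76) of the others in P7 cortex, and 5.68% (3.06 to 9.51) and 9.06% (7.14 to 11.3) in P7 SVZ. The intervals overlap in both, and at full depth Lhx2 was more frequent beside Pax6 in both, at 12.6% and 3.60% in P7 cortex and 33.5% and 19.5% in P7 SVZ. The full-depth shares are not adjusted for depth, and in P7 SVZ their order is the reverse of that at equal depth. There 546 of 555 Lhx2 UMIs lay in the histone-led cluster, with a median of 10823.5 UMIs per cell, against 3320 and 3628 in the other 2. Cells of a library share their source, so these shares are descriptions.

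Emx1 and Gsx2, the most dorsal and ventral of the pairs, were seldom found in the same cell. The cells in question lay in the cluster led by Neurog2, Pbk and Ccna2, 592 cells of which 9 of the 10 leading genes belong to the cell cycle. It was named intermediate precursor-like, but that name holds for a part of it only, as the following shares show. In P7 cortex 4 of 61 cells with Emx1 had Gsx2 (6.56%, 1.82 to 15.9), against 37.9% (31.9 to 44.2) of the 253 cells without Emx1. In P2 cortex the shares were 14.3% (5 of 35 cells, 4.81 to 30.3) and 35.6% (26.4 to 45.8). Depth was alike, with a median of 12149 UMIs in Emx1 cells and 12310.5 UMIs in Gsx2 cells of P7 cortex. These shares are of cells at full depth, and microglia-like cells of P7 cortex had Gsx2 in 0.279% and Emx1 in 1.40%. With the cells of this cluster thinned, Gsx2 was found in 1 of 23 cells with Emx1 (4.35%, 0.110 to 21.9) and in 10.6% (8.20 to 13.5) of the others, intervals that overlap, so the difference was not detectable at that depth.

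Neurog2, Eomes and Dlx2 followed the same division. In P7 cortex, Neurog2, a bHLH factor of the excitatory lineage, was found in 55.7% of Emx1 cells and 2% of the 100 Gsx2 cells. Eomes, the factor of excitatory intermediate precursors, was found in 68.9% and 9%, and Dlx2, a homeodomain factor of inhibitory precursors, in 14.8% and 75.0%. In P2 cortex the shares were 45.7% and 0% for Neurog2, 60% and 9.76% for Eomes, and 5.71% and 48.8% for Dlx2. These 2 kinds of cell do not make up the whole cluster, since Emx1 was in 61 and Gsx2 in 100 of its 314 P7 cortex cells. Among these 314 cells Olig2 was in 48.7%, Egfr in 56.1% and Dll3 in 55.7%, and their place in the division is not described here. Pax6 was in 91.8% of Emx1 cells and 65.0% of Gsx2 cells of P7 cortex, so it was found in both. Lhx2 was likewise in 93.4% and 63.0%. Zic1 leaned to the Emx1 cells, being in 18% (9.36 to 30) of Emx1 cells and 9.88% (6.50 to 14.2) of cells without Emx1 in P7 cortex, and in 31.4% (16.9 to 49.3) and 6.93% (2.83 to 13.8) in P2 cortex. The intervals overlap in P7 cortex and not in P2 cortex.

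**Figure D3:**
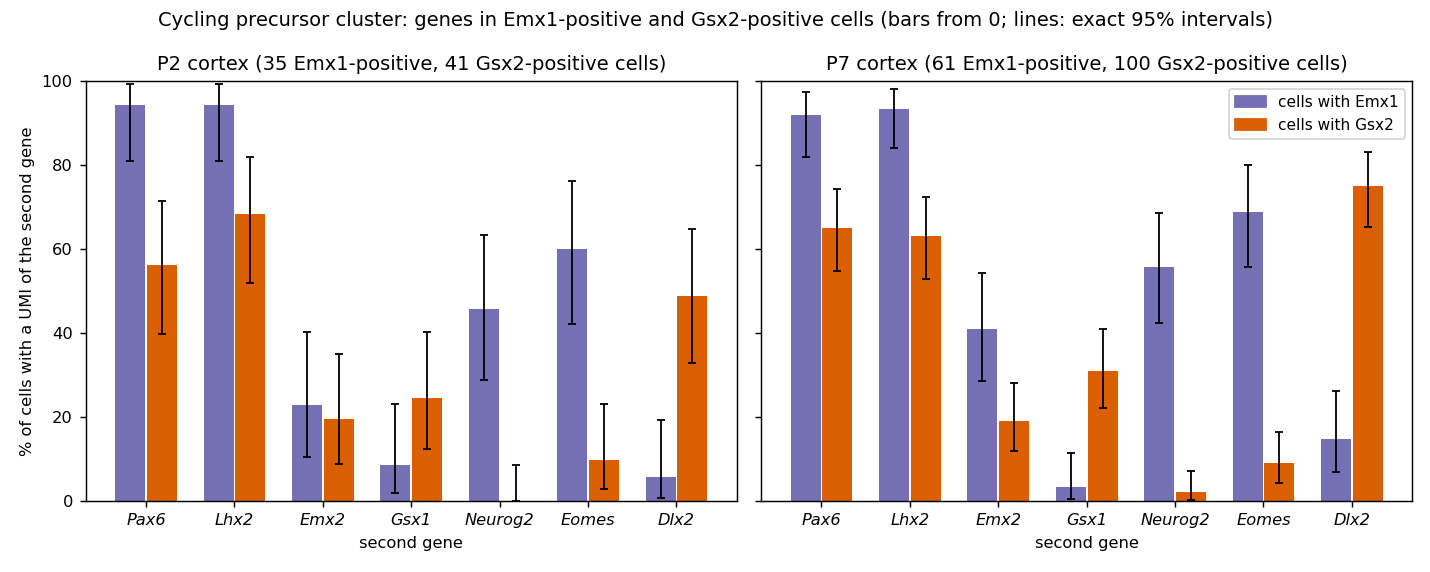
Share of cells with a UMI of a second gene among Emx1-positive and Gsx2-positive cells of the cycling cluster led by Neurog2, Pbk and Ccna2, at full depth, in P2 cortex (left) and P7 cortex (right), with exact 95% intervals as lines. Neurog2 and Eomes stand high beside Emx1 and Dlx2 beside Gsx2, while Pax6 and Lhx2 are in 56.1% or more of the cells of either kind.

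In P60 white matter the cells of the same cluster had Dlx2 more often and Emx1 less often than in P2, P7 and P15 cortex, while Gsx2 was alike. Of 68 cells, 25 had Gsx2 (36.8%, 25.4 to 49.3), 49 had Dlx2 (72.1%, 59.9 to 82.3) and 2 had Emx1 (2.94%, 0.358 to 10.2). The Emx1 share was 25.7% (18.6 to 33.9) in P2 cortex, 19.4% (15.2 to 24.2) in P7 cortex and 12.2% (4.63 to 24.8) in P15 cortex. The Gsx2 share was 30.1%, 31.8% and 32.7% in these libraries, close to that of P60 white matter. Dlx2 was there in 23.5% (16.7 to 31.6), 45.5% (39.9 to 51.2) and 34.7% (21.7 to 49.6) of cells. The Emx1 intervals of P60 white matter and P15 cortex overlap. Of the P60 white matter cells 44.1% had Egfr and 27.9% had Olig2.

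Gsx1 and Gsx2 were found in the same cells both among cycling precursors and among OPC-like cells. In the cycling cluster led by Neurog2, Pbk and Ccna2, Gsx2 was at full depth in 49.1% (39.3 to 58.9) of 108 cells with Gsx1 and 27.7% (23.7 to 31.9) of 484 cells without it. With each cell thinned the shares were 12.2% (4.08 to 26.2) and 10.2% (7.83 to 13.1), with 5 cells that had both, and these intervals overlap. Among OPC-like cells at full depth Gsx2 was in 5.63% (3.85 to 7.89) of 551 cells with Gsx1 and 5.36% (4.22 to 6.70) of the others. These 31 cells had both genes, and the shares of Gsx2 beside and without Gsx1 differed by less than their intervals. Microglia-like cells had Gsx2 in 0.0274% of 3648 cells, at a median of 4656.5 UMIs against 6649.5 UMIs in OPC-like cells.

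The 8 members were next compared between classes within libraries, with edgeR's quasi-likelihood test on UMI sums, the library as a block and Benjamini-Hochberg adjustment over all genes tested. Between astrocyte-like and OPC-like cells in 6 libraries, 7 members passed the filter on low counts and 6 differed, where 5227 of 11015 genes (47.5%) did. Pax6 was 3.80 ± 0.22 log2 units higher in astrocyte-like cells (SE, edgeR adjusted p = 1.01e-07), Lhx2 2.54 ± 0.24 (adjusted p = 4.72e-06) and Emx2 2.11 ± 0.19 (adjusted p = 3.09e-06). For each of these 3 genes every astrocyte-like library was above every OPC-like library except that Emx2 had 27.5 CPM in P7 SVZ astrocyte-like cells and 33.5 CPM in P60 white matter OPC-like cells. Zic1 was 1.99 ± 0.39 higher (edgeR adjusted p = 0.00140), with astrocyte-like and OPC-like libraries overlapping.

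Gsx1 and Gsx2 differed the other way. Gsx1 was lower in astrocyte-like cells by a log2 change of -6.66 ± 0.38 (edgeR adjusted p = 1.01e-07), and 4 of the 6 astrocyte-like sums had none, so this value leans on the model's prior count. Gsx2 had a log2 change of -2.58 ± 0.72 (edgeR adjusted p = 0.0117), with 6.31 CPM in P7 SVZ astrocyte-like cells as the highest value of that class and 6.51 CPM in P7 SVZ OPC-like cells as the lowest of the other. Emx1, at 1.13 ± 0.46, did not pass (edgeR adjusted p = 0.0676). Nkx2-1 was under the filter. Since 47.5% of all genes differed between these classes, the count of members called is no result about the members.

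Neuroblast-like cells were set against astrocyte-like cells in 5 libraries, and 3 of 5 members that passed the filter differed, as did 5324 of 10654 genes (50%), 22.7% higher and 27.3% lower in neuroblast-like cells. Lhx2 was lower in neuroblast-like cells by a log2 change of -2.93 ± 0.45 (edgeR adjusted p = 0.000350) and Emx2 by -2.77 ± 0.47 (edgeR adjusted p = 0.000664), while Gsx2 was higher by 4.35 ± 0.74 (edgeR adjusted p = 0.000655). Without the clusters led by cell cycle genes, an alternative added after the data were seen, the Gsx2 change was 2.65 ± 1.21 with an adjusted p of 0.0860. Pax6 had a log2 change of 0.00047 ± 0.24 (edgeR adjusted p = 0.999), which leaves room for a difference larger than this error in either direction. Its order differed between libraries, with 284 CPM in neuroblast-like and 157 CPM in astrocyte-like cells of P7 cortex. In P60 white matter the levels were 254 and 358 CPM. Zic1 had 0.54 ± 0.48 (edgeR adjusted p = 0.384).

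Neural precursor-like cells were set against astrocyte-like cells in the 3 libraries that held both. Of 6 members tested 1 differed, beside 867 of 11321 genes (7.66%), of which the higher genes made 3.58% and the lower ones 4.08% of those tested. Pax6 was 1.03 ± 0.18 log2 units higher in neural precursor-like cells (edgeR adjusted p = 0.0229), at 334, 256 and 419 CPM, against 157, 102 and 185 CPM in astrocyte-like cells of P7 cortex, P7 SVZ and P15 cortex. The classes did not overlap, but at a clustering resolution of 1.0, 245 of the 255 P7 SVZ astrocyte-like cells were named neural precursor-like. The call was lost without P7 cortex (1.11, adjusted p = 0.429) and without P7 SVZ (0.94, adjusted p = 0.0849). Emx1 had a larger log2 change of 1.99 ± 0.46 that missed the threshold (edgeR adjusted p = 0.0504), at 58.2, 31.4 and 99.9 CPM, against 18.5, 12.2 and 6.02 CPM in the same libraries. Lhx2 (0.31 ± 0.18, adjusted p = 0.338), Emx2 (0.40 ± 0.20, adjusted p = 0.249) and Zic1 (-1.21 ± 0.36, adjusted p = 0.0940) did not pass in edgeR. Gsx2, the remaining member tested, did not pass either. Its log2 change was 0.54 without P7 cortex and 2.46 without P7 SVZ.

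**Figure D4:**
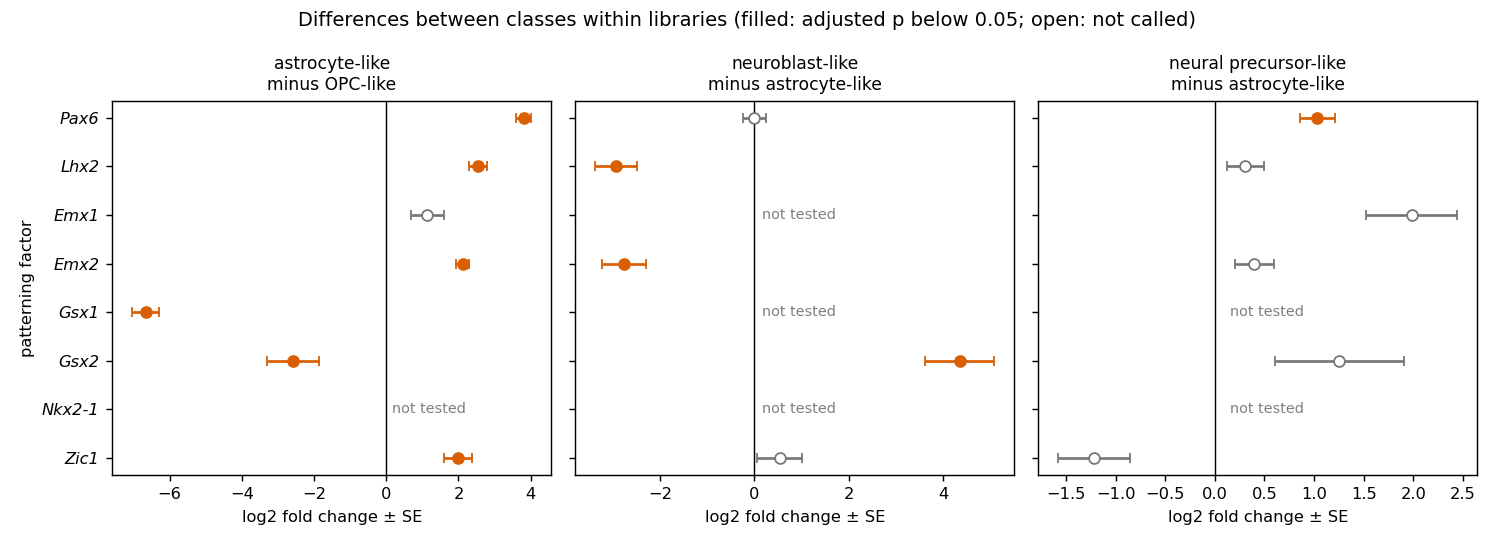
Log2 fold change ± SE of each factor in the 3 comparisons between classes (edgeR, library as a block), with filled points for an adjusted p below 0.05 and open points for the rest. Lhx2 and Emx2 are positive in astrocyte-like minus OPC-like and negative in neuroblast-like minus astrocyte-like cells, Gsx2 lies on the opposite side in both, Gsx1 is negative in the first and was not tested in the second, and Pax6 is at 0.00 between neuroblast-like and astrocyte-like cells.

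Other patterning genes moved in these comparisons as follows, from lists chosen with earlier results of these data known. In astrocyte-like minus OPC-like cells, 7 of 7 tested dorsal genes were higher (17 listed, median log2 change 3.06, against -0.01 over all genes tested, of which 23.6% were called higher and 23.8% lower), led by Gli3 at 6.00, Otx1 at 3.86 and Fezf2 at 4.48. Of the ventral list, 3 of 5 tested were higher and 2 lower, with Gli2, a Hedgehog effector, at 5.58, and Olig2, a factor of the oligodendrocyte lineage, at -3.29. In neuroblast-like minus astrocyte-like cells 4 of 7 dorsal genes were lower and none higher, and of 5 ventral genes 3 were lower and Meis2, a factor of the lateral ganglionic eminence and its neurons, was higher at 2.06. In neural precursor-like minus astrocyte-like cells 3 of 8 dorsal genes were higher, namely Sfrp1 (2.75), Tfap2c (4.90) and Fezf2 (2.92), and 2 of 8 ventral genes lower, Ptch1 (-0.99) and Nkx2-2 (-1.76). Zic5 of the Zic family had 5.40, -1.71 and -0.86 in the 3 comparisons, each below an adjusted p of 0.05 in edgeR.

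Stage was tested by setting the P60 libraries against the P2 to P15 libraries within a class. In astrocyte-like cells 0 of 5 members passed in edgeR, beside 9 of 10567 genes (0.0852%), with 0.0568% higher and 0.0284% lower in adult cells. At an unadjusted p below 0.05 there were 2145 genes, and DESeq2 called 458. Pax6 had 284, 240 and 358 CPM in adult P60 cortex, grey matter and white matter, against 157, 102 and 185 CPM in early P7 cortex, P7 SVZ and P15 cortex. The stages did not overlap, with a log2 change of 0.94 ± 0.32 (edgeR adjusted p = 0.163). How many of all genes tested lay apart in this way was not counted, here or in the stage tests below. Lack of overlap is thus a description of these libraries and no result about the members. Emx1 had 2.14, 0 and 0 CPM in the adult and 18.5, 12.2 and 6.02 CPM in the early libraries, again with no overlap, and a log2 change of -2.97 ± 0.78 (edgeR adjusted p = 0.118). Without P15 cortex the same test called 2029 genes and both members, Pax6 at 1.07 ± 0.32 (edgeR adjusted p = 0.0360) and Emx1 at -3.31 ± 0.68 (edgeR adjusted p = 0.00708), so these results turn on a single library. Adult and early astrocyte-like cells also came largely from different clusters. The cluster led by Grin2c and Fam107a held 1060 of 1061 P60 cortex cells, all 127 of grey matter and all 104 of white matter. It held 238 of 739 P15 cortex cells and 0 cells of P7 cortex or P7 SVZ. At a clustering resolution of 1.0, 245 of the 255 P7 SVZ cells were named neural precursor-like. The part of these differences in the stage changes was not tested.

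Of the other 3 tested members, Lhx2 and Zic1 overlapped between stages. Lhx2 had 234, 272 and 161 CPM in adult and 148, 152 and 213 CPM in early astrocyte-like cells (0.34 ± 0.32, edgeR adjusted p = 0.574). Emx2 had 66.5, 75.1 and 106 CPM in adult and 62.2, 27.5 and 64.2 CPM in early libraries, ranges that lay apart by a small margin (0.60 ± 0.36, edgeR adjusted p = 0.363). Zic1 had 8.22, 5.78 and 10.9 CPM in adult and 22.4, 0.451 and 17.3 CPM in early libraries (-0.78 ± 0.89, edgeR adjusted p = 0.652). On simulated counts with these sums the test found 4% of genes changed by 1 log2 unit and 71% of those changed by 2, so a change of the size of Pax6 would mostly be missed.

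In OPC-like cells 0 of 5 members passed, beside 635 of 9912 genes (6.41%), with 3.02% higher and 3.39% lower in adult cells, while 2211 genes had an unadjusted p below 0.05. Lhx2 had 39.1, 24.8 and 39.1 CPM in adult and 48.8, 43.0, 45.8 and 50.4 CPM in early libraries, with no overlap and a log2 change of -0.68 ± 0.27 (edgeR adjusted p = 0.150). Gsx1 had 51.3, 147 and 39.1 CPM in adult and 57.2, 59.1, 41.7 and 93.1 CPM in early libraries (0.20 ± 0.40, edgeR adjusted p = 0.814). Its sign rests on P60 grey matter, without which the change was -0.68. Emx1 was under the filter: no UMI was seen in the 3 adult libraries, against 77 UMIs and 7.57, 7, 4.26 and 9.24 CPM in the 4 early libraries. Set against a limit of 3 counts over the adult group, Emx1 was at least 3.02-fold lower in adult OPC-like cells, and at least 1.69-fold lower without P60 grey matter. Pax6, Emx2 and Gsx2 had log2 changes of 0.09, 0.51 and -0.23 (edgeR adjusted p = 0.933, 0.531 and 0.833).

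In neuroblast-like cells, with 2 adult and 4 early libraries, 0 of 4 members and 0 of 8503 genes (0%) passed in edgeR, with 844 genes at an unadjusted p below 0.05 and 84 called by DESeq2. Gsx2 had 7.20 and 8.25 CPM in adult and 14.0, 35.3, 34.8 and 56.1 CPM in early libraries, a log2 change of -2.09 ± 0.65 (edgeR adjusted p = 0.355). Lhx2 had 7.20 and 7.22 CPM in adult and 15.6, 22.1, 66.6 and 32.7 CPM in early libraries (-2.36 ± 0.80, edgeR adjusted p = 0.388). Neither gene overlapped between stages, but the class was filled from different clusters, since 301 of 302 adult cells and 186 of 1839 early cells lay in the non-dividing cluster led by Dlx6os1 and Tiam2. In that cluster Gsx2 had 7.20 CPM in P60 cortex and 8.29 CPM in P60 white matter. It had 0 in P2 cortex and 17.4 CPM in P7 cortex, so these libraries overlapped between stages. P15 cortex had too few cells there for a level (19 cells, with 6 UMIs of Gsx2 and 4 of Lhx2). Summed over all libraries of a stage, Gsx2 in the cluster had 8.14 CPM in adult and 20.5 CPM in early cells. Lhx2 there had 7.20 and 7.25 CPM in the adult libraries (1 and 7 UMIs), against 0 and 5.79 CPM in P2 and P7 cortex (0 and 4 UMIs). Summed by stage in the same way, Lhx2 had 7.23 CPM in adult and 9.12 CPM in early cells, from 8 UMIs each. These counts are too few to say whether Lhx2 differed between stages within that cluster. Gsx1, under the filter, had no UMI in the 2 adult libraries and was at least 4.57-fold lower there, against a limit of 3 counts over the adult group. This bound was 2.47-fold without P7 SVZ, and without P60 white matter no bound remained, since the limit of 21.6 CPM was above the early level of 12.4 CPM. Of the 153 early UMIs of Gsx1, 126 lay in the histone-led cluster and 22 in the one led by Nusap1 and Ccnb1. In the cluster led by Dlx6os1 and Tiam2, early cells had 2 UMIs of Gsx1 (2.28 CPM), under the adult class limit of 2.71 CPM. No bound thus remained within the cluster that held 301 of the 302 adult cells. Pax6 had 331 and 254 CPM in adult and 204, 284, 137 and 168 CPM in early libraries (0.51 ± 0.31, edgeR adjusted p = 0.633), and these overlapped.

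**Figure D5:**
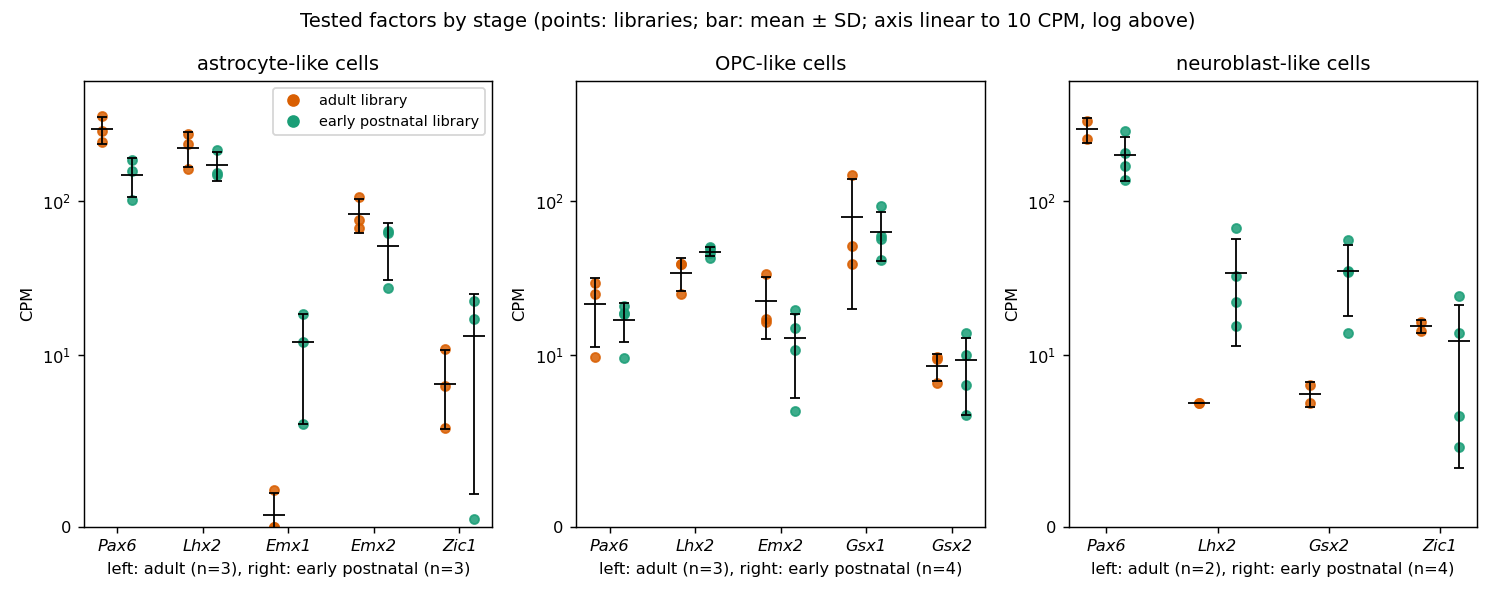
CPM of the tested factors in adult (left, orange) and early postnatal libraries (right, green) for astrocyte-like, OPC-like and neuroblast-like cells, with a point for each library, a bar for the mean ± SD and an axis that is linear up to 10 CPM and logarithmic above. Pax6, Emx1 and Emx2 in astrocyte-like cells, Lhx2 in OPC-like cells, and Lhx2 and Gsx2 in neuroblast-like cells do not overlap between stages. None of them passed the edgeR test. The share of all genes without overlap was not counted, so the lack of overlap is no result about the members.

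Whether the stage change differed between astrocyte-like and OPC-like cells was tested as an interaction in 6 libraries. No member of 7 passed in edgeR, beside 88 of 12339 genes (0.713%; 0.0486% positive and 0.665% negative), with 1866 genes at an unadjusted p below 0.05 and 176 called by DESeq2. The change was 0.63 ± 0.38 log2 units larger in astrocyte-like cells for Pax6 (edgeR adjusted p = 0.470) and 0.90 ± 0.38 for Lhx2 (edgeR adjusted p = 0.280). Among the patterning lists, Sfrp1, a secreted Wnt antagonist, was lower in adult OPC-like cells (-3.54, edgeR adjusted p = 0.0269) and differed in the interaction (4.08, edgeR adjusted p = 0.0204). No other listed gene passed in a stage test. Stage went with sex-linked RNA: Ddx3y, from the Y chromosome, had 0 UMIs in the 3 adult libraries and 31.7 to 58.7 CPM in the 4 early libraries. Xist, made from an inactive X chromosome, had 1886 to 3593 CPM in the adult and 327 to 1012 CPM in the early libraries. Stage and the sexes pooled into a library cannot be told apart.

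The P7 SVZ and P7 cortex libraries were compared as 1 library a side, with no test. Zic1 was lower in P7 SVZ in each neural class compared, at 0.451 CPM in P7 SVZ and 22.4 CPM in P7 cortex astrocyte-like cells, a ratio of 0.0201 (0.000506 to 0.113). In neural precursor-like cells it had 0.961 and 10.3 CPM (ratio 0.0930, 0.0185 to 0.289) and in neuroblast-like cells 6.48 and 24.3 CPM (ratio 0.267, 0.185 to 0.383). In pericyte or smooth muscle-like cells the ratio was 1.56 (1.19 to 2.05), so the low values in P7 SVZ were not shared by all its cells. Emx1 in neural precursor-like cells had 31.4 CPM in P7 SVZ and 58.2 CPM in P7 cortex (ratio 0.539, 0.423 to 0.682), and Pax6 256 and 334 CPM (ratio 0.765, 0.701 to 0.834).

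Neuroblast-like cells of P7 SVZ had less Pax6 and more Lhx2 than those of P7 cortex. Pax6 had 137 and 284 CPM (ratio 0.485, 0.444 to 0.530) and Lhx2 66.6 and 22.1 CPM (ratio 3.02, 2.35 to 3.93). The 2 libraries filled this class from different clusters, with P7 SVZ cells in the clusters led by histone genes and by Pbx3 and Prokr2, and P7 cortex cells in those led by Synpr, Dlx6os1 and Nusap1. Of Lhx2 in P7 SVZ, 546 of 555 UMIs lay in the histone-led cluster (85.1 CPM), against 4.35 and 5.33 CPM in the other 2. Gsx2 had 34.8 CPM in P7 SVZ and 35.3 CPM in P7 cortex (ratio 0.986, 0.791 to 1.24). Gsx1 in OPC-like cells had 41.7 and 59.1 CPM (ratio 0.706, 0.570 to 0.874).

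Between P60 white matter and P60 grey matter, again 1 library a side, Gsx1 in OPC-like cells had 39.1 and 147 CPM, a ratio of 0.265 (0.139 to 0.469) from 14 and 89 UMIs. The share of thinned OPC-like cells with Gsx1 was 6.58% and 26.9%, in the same order. In astrocyte-like cells Pax6 had 358 and 240 CPM (ratio 1.49, 1.10 to 2.02), Lhx2 161 and 272 CPM (ratio 0.591, 0.404 to 0.854) and Emx2 106 and 75.1 CPM (ratio 1.41, 0.801 to 2.49). Pax6 and Lhx2 thus stood in opposite order in the white and grey matter, and the interval for Emx2 includes equal levels. Gsx1 in OPC-like cells of P60 cortex had 51.3 CPM. The ratio of P60 white matter to P60 cortex was 0.761 (0.358 to 1.57), an interval that includes equal levels.

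The genes whose levels were most like each member's were sought over 65 sums of a class in a library, by Pearson's r of log2(CPM + 10), with the 8 members left out of the ranking and given apart, as a description since sums share libraries and classes. Pax6 was nearest to Sox1 (0.93), Pou3f4 (0.89) and Msi1 (0.87), the last a marker of neural stem cells. Lhx2 was nearest to Igdcc4 (0.87), Otx1 (0.86) and Arhgef26 (0.86), and among the members to Emx2 (0.86) and Pax6 (0.76). Emx1 was nearest to Fezf2 (0.80), Urah (0.76) and Cnih3 (0.75), and Emx2 to Emx2os (0.86), Dmrta2os (0.86) and Arhgef26 (0.84), while Lhx2 was as near to Emx2 (0.86) as the first of these. Gsx1 was nearest to Dll3 (0.85), Sapcd2 (0.82) and Megf11 (0.81), whereas Gsx2 was nearest to Cdc45 (0.90), Helt (0.87) and Mybl2 (0.87), of which Cdc45 and Mybl2 are genes of dividing cells. Zic1 was nearest to its neighbour Zic4 (0.93), Ifitm1 (0.89) and Slc6a20a (0.89).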

How the data were processed

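The authors deposited, for each of the 7 libraries, a matrix of UMI counts per gene and barcode made with Cell Ranger, version 3 per the submitters' processing notes, with mm10 per the labels; the sources used here do not give the annotation or strand setting. The counts were used as deposited, and no deposited column of per-sample values was left unused (0 columns). Cells with at least 500 detected genes and at most 10% mitochondrial UMIs were kept (1304 barcodes fell under the gene limit and 4391 over the mitochondrial one), and 305 doublets called by Scrublet in scanpy 1.11.5 were removed. Of the deposited barcodes, counted before any filter, 190 occur in more than 1 library. Cells were scaled to 10000 UMIs, and clustered (2000 variable genes, 30 components, 15 neighbours, Leiden resolution 1.5) without the 8 members and 36 listed patterning genes. Naming a cluster took 3 or more markers of a class, each 2-fold above other cells and found in 10% of its cells.

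UMI counts were summed per class and library over at least 20 cells, and tested with edgeR 4.0.16 (quasi-likelihood, TMM, filterByExpr) in R 4.3.3, with Benjamini-Hochberg adjustment over all genes tested and a call at an adjusted p below 0.05. Stage fits had no block, and fits between classes had the library as a block. The pipeline was tested on simulated data. The members and lists were chosen with earlier results of these data known. Named beside the members were the 3 genes of highest correlation for each member with at least 200 UMIs, and at most 3 called genes of a list by adjusted p. Alternatives were RLE scaling, no filter, DESeq2 1.42.0, resolution 1.0, a 5% mitochondrial limit, leaving out each library, dropping or adding the block, 1000 UMIs or no thinning, sums of at least 50 cells, and, chosen after seeing the data, leaving out clusters led by cell cycle genes.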

Additional observations from a re-analysis of the deposited data

Results flagged for a closer look

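In each group of 4 libraries the highest and lowest value of a member in a class was set against the rest by Dixon's ratio, which flags about 1 in 20 groups by chance. Of 28 groups 2 passed the critical ratio of 0.829. Lhx2 in neural precursor-like cells had 209 CPM in P7 cortex, while the other early postnatal libraries lay between 244 and 246 CPM (ratio 0.956). Nkx2-1 in neuroblast-like cells had 4.68 CPM in P7 SVZ, while the other early postnatal libraries had 0, 0 and 0.315 CPM (ratio 0.933), and the region and the mouse strain of that library cannot be told apart.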

How the results depend on the processing

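Of 488 recomputed log2 changes of members, 449 kept direction and side of the threshold, 5 lost the call, 16 gained it and 18 turned, and the cause was not tested. Genes called by stage in astrocyte-like cells numbered 4 with RLE, 777 with no filter, 458 with DESeq2 and 5 at resolution 1.0, and 0 to 2029 without 1 library, with 1 member called with no filter (Emx1, adjusted p = 0.0167) and 0 to 2 without 1 library (2 without P15 cortex). In OPC-like cells 1256 genes and 1 member were called with no filter, and 13 (without P60 grey matter) to 1265 genes (without P15 cortex) without 1 library. In neuroblast-like cells 346 genes and 1 member were called with no filter, 84 genes with DESeq2, 1 gene without cell cycle clusters and 0 to 80 without 1 library (80 without P2 cortex). Astrocyte-like minus OPC-like cells gave 3247 genes at a 5% mitochondrial limit, 3822 to 5175 genes and 4 to 6 members without 1 library. Neuroblast-like minus astrocyte-like cells gave 6 members with no filter and 3911 to 5431 genes without 1 library. Neural precursor-like minus astrocyte-like cells gave 2488 genes with no filter, 1704 at resolution 1.0 (where P2 cortex took the place of P7 SVZ, so libraries changed too) and 0 (without P7 cortex) to 2430 (without P15 cortex) without 1 library; members called were 2 with RLE, 3 with no filter, 2 with DESeq2, 3 at resolution 1.0, 3 at the 5% limit and 0 to 3 without 1 library. The interaction gave 634 genes with no filter, 176 with DESeq2, 31 at the 5% limit and 0 to 1333 (without P15 cortex) without 1 library.

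Pax6 by stage in OPC-like cells was -0.12 without P7 SVZ, -0.26 without P60 cortex, -0.059 without P60 white matter and -0.067 at the 5% limit, and up to 0.48 without P60 grey matter, and Gsx1 was -0.68 without P60 grey matter to 0.49 without P60 white matter. Pax6 in neuroblast-like minus astrocyte-like cells was -0.056 with RLE, -0.035 with no filter, -0.053 with DESeq2, -0.20 without P7 cortex, -0.0041 without P7 SVZ, -0.0088 without P60 cortex, up to 0.21 without P15 cortex, -0.21 at resolution 1.0 and -0.0044 without cell cycle clusters. Zic1 turned to -0.66 there at resolution 1.0, and to -0.18 by stage in neuroblast-like cells without cell cycle clusters. In the interaction Emx1 was -0.92 without P60 cortex to 3.78 without P60 grey matter and Emx2 -0.17 at resolution 1.0.

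No paired analysis was possible because the labels give no replicate numbers in the stage tests. Where 2 classes share a library, leaving out the library block gave 4043 genes and 5 members for astrocyte-like minus OPC-like cells (Zic1 adjusted p = 0.0545), 4941 genes and 3 members for neuroblast-like minus astrocyte-like cells (Pax6 -0.068), 0 genes and 0 members for neural precursor-like minus astrocyte-like cells (1496 genes at an unadjusted p below 0.05 in edgeR) and 1 gene for the interaction. Of 64 mean shares of cells with a UMI, 18 moved by more than their SD between libraries with 1000 UMIs per cell and 53 with no thinning, as shares follow depth.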

Other observations

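Members were also found in cells outside the classes compared above. In P7 SVZ the unnamed cluster led by Cplx3, Trbc2, Rprml and Hs3st4, with 239 cells and a median of 24493 UMIs, had 71.2 CPM of Emx1, 14.0 CPM of Lhx2 and 1.13 CPM of Pax6, and 442 UMIs of Emx1 lay there. The first-listed gene, Cplx3, is known from neurons of the deepest cortical layer, and 4 of 7 excitatory neuron markers were raised in this cluster, which stayed unnamed because its leading genes held more markers of another class.

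A further cluster of 104 cells was led by S100a8 and S100a9, genes of neutrophils, together with Reln and Ndnf, genes of Cajal-Retzius cells, so it mixed kinds of cell. All 42 cells with Emx2, all 40 with Lhx2 and all 37 with Zic1 were among its 51 cells with Reln, and none of the 33 cells with Ptprc, a marker of blood-borne cells, had any of the 3. Of the 51 Reln cells 82.4% (69.1 to 91.6) had Emx2, 78.4% (64.7 to 88.7) Lhx2, 72.5% (58.3 to 84.1) Zic1 and 7.84% (2.18 to 18.9) Pax6. In P7 cortex, with 43 cells of this cluster, the levels were 280 CPM of Emx2, 126 CPM of Zic1 and 115 CPM of Lhx2. These shares are at full depth and have no replicate library of enough cells.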
